A study of Mus musculus with 6 samples.

Results

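The genes described here are the Wnt ligands, the R-spondins, the Frizzled, Lrp and Lgr receptors, the Sfrp and Dkk antagonists, the Axins and the TCF/LEF transcription factors. They were chosen by name, as the rows whose symbol starts with Wnt, Fzd, Sfrp, Dkk or Rspo followed by a digit, together with *Lgr4*, *Lgr5*, *Lgr6*, *Lrp5*, *Lrp6*, *Axin1*, *Axin2*, *Lef1*, *Tcf7*, *Tcf7l1* and *Tcf7l2*. The rule gave 52 of the 18152 genes in the expression table, and 45 of them passed a filter on low counts that left 14131 genes for testing.

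RNA-seq libraries were made from the inner enamel epithelium (IEE) of the mandibular first molar (MM1) at E18.5 (embryonic day), with 3 biological replicates of each genotype. The control libraries came from *Kdf1 fl/fl* mice, which the sample labels call WT, and the cKO libraries from *K14-Cre;Kdf1 fl/fl* mice, both with a C57BL/6J background. Both groups carry the floxed *Kdf1* alleles, and only the cKO group carries Cre, which the keratin 14 promoter drives in epithelial cells, so that the deletion is directed to epithelium and not to mesenchyme. The tissue was cut from frozen sections by laser capture microdissection, and neither the labels nor the methods say whether material from several embryos was pooled.

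In canonical Wnt signalling, a ligand binds a Frizzled receptor and an Lrp co-receptor, the Axin-based complex that destroys beta-catenin is held back, and beta-catenin enters the nucleus to act with TCF/LEF factors. R-spondins bind Lgr receptors and keep Frizzleds on the cell surface, Sfrp proteins capture ligands outside the cell, and *Dkk1* and its relatives block Lrp. In the developing tooth the ligands come from both epithelium and mesenchyme, and the pathway takes part in tooth initiation, in the enamel knots and in cusp patterning.

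Levels are given in TPM (transcript numbers scaled by length to the same total in each library), as deposited for every library, and sets of 3 values follow replicates 1, 2 and 3 of a group. Differences are log2 fold changes of cKO over control, called log2 differences beside single genes, and come from edgeR's quasi-likelihood test on the deposited estimated counts, with Benjamini-Hochberg adjustment over all 14131 genes. To pass the criterion a gene needed an adjusted p no higher than 0.05 and a log2 fold change of 1 or more in either direction. Library totals were 14713918 to 16675133 counts. *Kdf1* had 53.2, 47.0 and 48.9 TPM in the control libraries and 0, 0.0800 and 0 TPM in the cKO libraries, as the labels state.

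The antagonist *Dkk3* and the transcription factor *Lef1* rose past the criterion, and no member fell past it. Beyond these, *Sfrp1*, *Sfrp2*, *Sfrp4* and *Rspo1* had the largest differences, all with higher levels in cKO, and *Wnt7a* and *Wnt7b*, both lower in cKO, had the smallest p among the ligands. The 2 members that rose were 2 of 45 tested, where 0.142% of all genes tested rose and 0.290% fell. At an unadjusted p of at most 0.05, 11 members were higher and 3 were lower in cKO, against 13.0% of all genes tested that were higher and 11.6% that were lower. In 11 members all cKO libraries were above all controls in TPM, and in 4 they were below, against 15.4% and 12.7% of all genes tested. The median log2 fold change was 0.20 over the 45 members, with 27 above 0 and 18 below, and -0.0043 over all genes tested.

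The number past the criterion depended on the fit, and the labels and methods do not say that same-numbered libraries are pairs. With the replicate number as a block, 9 members passed as higher (*Dkk3*, *Fzd1*, *Lef1*, *Lgr6*, *Rspo1*, *Rspo2*, *Sfrp1*, *Sfrp2* and *Sfrp4*) and 3 as lower (*Wnt7a*, *Wnt7b* and *Wnt10a*), where 4.16% of all genes tested passed as higher and 1.92% as lower. DESeq2 gave the same higher members other than *Rspo2* and the same lower members other than *Wnt10a*, where 5.05% and 1.88% of all genes tested passed. The adjusted p of *Dkk3* and of *Lef1* was 0.0498, within a step of 70 genes between 0.049 and 0.05. Without cKO replicate 3, 5 members passed, in a fit where 465 of 14391 genes or 3.23% passed in either direction. Without any 1 of the other 5 libraries 0 members passed, and only 1 to 16 genes of the whole table did. In those fits 10 to 14 members were higher and 3 were lower at an unadjusted p of at most 0.05. The share of all genes at that limit was not computed there, so these counts cannot be read as particular to the members.

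**Figure D1:**
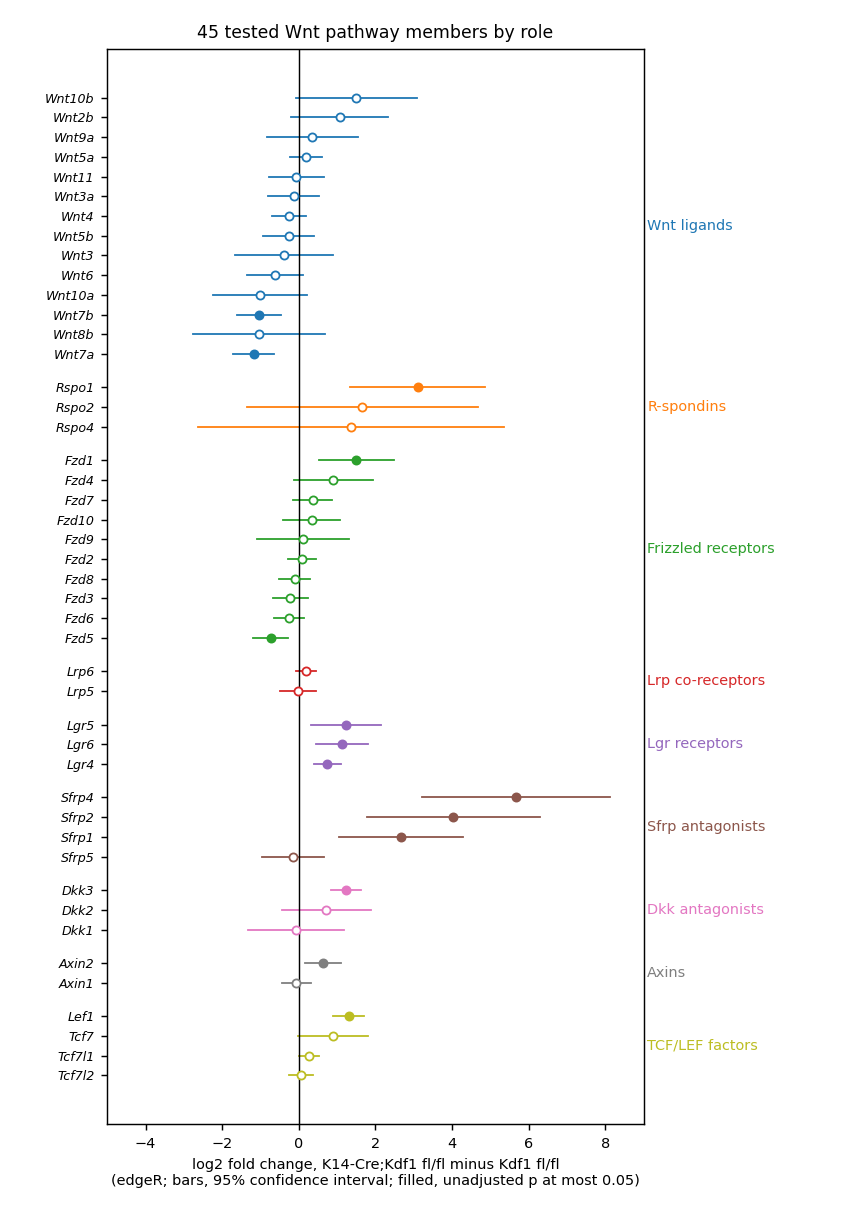
Log2 fold change of cKO over control (x axis) for the 45 tested members, grouped by role and coloured by group. Bars are 95% confidence intervals derived from the F statistic of edgeR's test, and points are filled where the unadjusted p was at most 0.05. Of the 4 Sfrp genes, 2 lie furthest to the right, up to 5.68 for *Sfrp4*, and *Wnt7a* is the lowest point at -1.18.

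The laser-captured tissue was checked against marker genes of the cells it could hold. The 12 dental epithelium markers summed to 10754 to 14875 TPM in the control libraries and 6454 to 10605 TPM in the cKO libraries, with 11 of 12 below 0 on the log2 fold change scale and a median of -0.60. Of the 14 tested dental papilla markers, 12 were above 0, with a median log2 fold change of 1.49, and their sum was 1593 to 7669 TPM in control and 4278 to 5828 TPM in cKO. The 2 below 0 were the type I collagen genes *Col1a1* (-0.46) and *Col1a2* (-0.53), which together had 912, 6201 and 3769 TPM in control and 2738, 2314 and 2943 TPM in cKO. The other 13 listed papilla markers, a list trimmed of these 2 genes after the values were seen, summed to 681, 1468 and 594 TPM in control and 3089.8, 2429 and 1336 TPM in cKO. *Vim* made up most of that sum in control, with 475, 888 and 439 TPM there and 1225, 964 and 765 TPM in cKO. Its log2 fold change was 0.66, and those of the other tested markers in the sum ran from 0.64 (*Fgf3*) to 2.81 (*Pax9*). All 9 endothelial markers and all 9 immune markers were above 0, with sums of 167 to 229 against 219 to 675 TPM and 84.5 to 181 against 170.4 to 536 TPM. Ameloblast lineage markers were below 0 in 5 of 6 genes, odontoblast markers in 5 of 5, and those of the stellate reticulum and stratum intermedium in 4 of 5. Bone markers were above 0 in 4 of 5 genes, erythroid markers in 3 of 5, neural and Schwann cell markers in 2 of 4 and skeletal muscle markers in 1 of 1. No marker of any list was at 0 in all 6 libraries, and the sums show that RNA of cells other than the IEE was captured in both groups. In such bulk RNA, fewer cells of a type and less RNA per cell cannot be told apart. The part of these cell types in the members' differences was not tested beyond ratios to the marker sums, which were chosen after the values were seen. A marker sum that moves the same way as a gene narrows its difference by construction, so such a ratio cannot tell the source of the RNA. Ratios to papilla markers are given for the 13 and, where it changed whether the groups overlapped, also for all 15. It did so for *Rspo1* and not for the summed Sfrp genes, *Fzd1*, *Dkk3* or *Lef1*.

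The promoter is shown for 1 member of each pattern, because members had log2 fold changes on both sides of 0 and TCF/LEF factors bind a motif with the core CTTTG. *Lef1* stands for the members that rose, *Sfrp2* for the antagonists that were many times higher, and *Wnt7a* for the ligands that were lower. Each sequence is the 250 bases before a transcription start in RefSeq on GRCm38.p6, 5′ to 3′ on the gene's strand, with any CTTTG of either strand in capitals. *Lef1* has 4 such windows and the most upstream is printed, at chr3:131110047-131110296 on the plus strand. The *Sfrp2* window is chr3:83766071-83766320 on the plus strand, and the *Wnt7a* window is chr6:91411354-91411603 on the minus strand.
Lef1: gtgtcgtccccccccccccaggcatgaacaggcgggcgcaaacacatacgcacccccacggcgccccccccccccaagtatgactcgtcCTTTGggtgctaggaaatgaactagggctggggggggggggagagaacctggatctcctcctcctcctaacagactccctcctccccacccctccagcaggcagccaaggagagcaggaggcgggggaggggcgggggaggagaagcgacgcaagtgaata
Sfrp2: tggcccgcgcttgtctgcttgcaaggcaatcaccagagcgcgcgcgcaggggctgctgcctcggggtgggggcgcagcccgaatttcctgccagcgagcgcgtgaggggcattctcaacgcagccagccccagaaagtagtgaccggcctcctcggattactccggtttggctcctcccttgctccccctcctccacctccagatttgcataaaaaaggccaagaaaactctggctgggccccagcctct
Wnt7a: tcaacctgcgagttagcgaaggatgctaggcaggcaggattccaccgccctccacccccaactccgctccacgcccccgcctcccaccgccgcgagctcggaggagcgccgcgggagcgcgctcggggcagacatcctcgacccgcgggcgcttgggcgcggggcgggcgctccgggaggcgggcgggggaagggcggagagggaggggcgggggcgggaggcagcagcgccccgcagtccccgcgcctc
The *Lef1* window held 1 CTTTG and had 66.4% G and C, the *Sfrp2* window held 0 and had 63.6%, and the *Wnt7a* window held 0 and had 77.6%. RefSeq promoters were found for 34 of the 52 members, in 42 windows. CTTTG on either strand was in 19 of these (45.2%), against 48.6% of all 32851 windows of that length. The longer form, CTTTGAA or CTTTGAT on either strand, each of which holds CTTTG, was in 3 (7.14%), against 7.48% of all windows. The median G and C content was 66.8% in the members' windows and 52.4% in all. The build of the deposited table is not given in the sources used here, and these sequences describe the reference only.

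The Wnt ligands were the most abundant group in control and were lower in cKO for 10 of the 14 tested, with a median log2 fold change of -0.26. Summed over all 19 ligands, the level was 514, 528 and 675 TPM in control and 363, 420.3 and 594 TPM in cKO. The cKO library was below the control library of the same number each time, but the groups overlapped. *Wnt6* took the largest share of the summed ligand TPM in every library, 33.9% ± 3.35 in control and 28.9% ± 1.23 in cKO (SD, n = 3 per group).

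*Wnt7a* and *Wnt7b* are close paralogues expressed in ectoderm, and *Wnt7b* is known to limit *Shh* expression in oral epithelium outside the tooth. *Wnt7a* had 25.02, 29.1 and 28.9 TPM in control and 13.01, 9.17 and 16.1 TPM in cKO. It was 2.27-fold lower in cKO, with a log2 difference of -1.18 (SE 0.23, adjusted p = 0.0637). *Wnt7b* had 17.96, 16.1 and 18.1 TPM in control and 10.2, 5.91 and 10.5 TPM in cKO, which was 2.05-fold lower, with a log2 difference of -1.03 (SE 0.24, adjusted p = 0.0789). For both genes every cKO library lay below every control library. With the replicate block edgeR's adjusted p was 0.0138 for *Wnt7a* and 0.0165 for *Wnt7b*, which took both past the criterion.

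The dental epithelium markers were lower in the same libraries. Per 1000 TPM of those markers, *Wnt7a* and *Wnt7b* together had 3.14, 4.21 and 3.16 TPM in control and 3.15, 2.34 and 2.51 TPM in cKO. On that ratio cKO replicate 1 was level with the lowest control library and the other two cKO libraries were below all controls.

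*Wnt6* and *Wnt10a*, the 2 most abundant ligands in control and both known from dental epithelium, were lower in cKO with groups that overlapped. *Wnt6* had 159, 175 and 253 TPM in control and 99.8, 123 and 178 TPM in cKO, with a log2 difference of -0.62 (SE 0.31, adjusted p = 0.2604). *Wnt10a* had 69.3, 91.5 and 157 TPM in control and 24.8, 52.3 and 85.2 TPM in cKO, with a log2 difference of -1.02 (SE 0.52, adjusted p = 0.273). In both genes the replicate 3 library was the highest of its group and replicate 1 the lowest, and each cKO library was below its same-numbered control. With the block the adjusted p was 0.0288 for *Wnt6*, at a log2 fold change of -0.63, and 0.0203 for *Wnt10a*, past the criterion at a log2 fold change of -1.11. Per 1000 TPM of dental epithelium markers, *Wnt6* and *Wnt10a* together had 16.7, 24.8 and 27.6 TPM in control and 16.9, 27.1 and 24.8 TPM in cKO. On that ratio the groups covered nearly the same range. The 5 odontoblast markers, all below 0, summed to 307, 1328 and 1634 TPM in control and 147, 214 and 380 TPM in cKO. Their sum too was highest in replicate 3 and lowest in replicate 1 of each group. The part of odontoblast RNA in the levels of *Wnt6* and *Wnt10a* was not tested.

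*Wnt10b*, a canonical ligand of early dental epithelium, was higher in cKO in 2 of the 3 same-numbered comparisons. Its levels were 25.99, 5.03 and 5.52 TPM in control and 24.01, 31.2 and 49.5 TPM in cKO. Control replicate 1 was above 1 of the cKO libraries, so the groups overlapped, with a log2 difference of 1.51 (SE 0.67, adjusted p = 0.216). Its share of the summed ligand TPM was 2.27% ± 2.41 in control and 7.46% ± 0.855 in cKO (SD, n = 3 per group).

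The other abundant ligands had log2 fold changes between -0.26 and 0.18. *Wnt3a*, a canonical ligand, had 66.9, 58.4 and 73.8 TPM in control and 54.7, 46.1 and 88.05 TPM in cKO, with a log2 difference of -0.13 (SE 0.28, adjusted p = 0.8103). *Wnt4* had 57.5, 57.7 and 60.1 TPM in control and 40.2, 54.9 and 56.9 TPM in cKO, with a log2 difference of -0.26 (SE 0.19, adjusted p = 0.437). Its cKO libraries all lay below the controls, replicates 2 and 3 by little. *Wnt5a*, the main non-canonical ligand and one made by dental mesenchyme, had 58.01, 68.4 and 52.1 TPM in control and 58.9, 72.8 and 81.2 TPM in cKO, with a log2 difference of 0.18 (SE 0.18, adjusted p = 0.553). *Wnt11*, a further non-canonical ligand, had 22.5, 12.3 and 14.4 TPM in control and 18.7, 12.8 and 18.6 TPM in cKO, with a log2 difference of -0.07 (SE 0.31, adjusted p = 0.915). None of these 4 passed an unadjusted p of 0.05, and the 95% confidence interval of the log2 fold change was -0.70 to 0.18 for *Wnt4* and -0.23 to 0.60 for *Wnt5a*.

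The other 5 tested ligands had a mean under 10 TPM in both groups. *Wnt2b* (mean 1.14 TPM in control and 2.57 TPM in cKO) and *Wnt9a* (2.13 and 2.93 TPM) had higher means in cKO. *Wnt3* (1.11 and 0.78 TPM), *Wnt5b* (6.91 and 6.35 TPM) and *Wnt8b* (0.85 and 0.42 TPM) had lower means. None had an unadjusted p of 0.05 or less. The ligands *Wnt1*, *Wnt2*, *Wnt8a*, *Wnt9b* and *Wnt16* did not pass the filter on low counts and had 0 to 5 counts in every library, too few to compare at this depth.

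**Figure D2:**
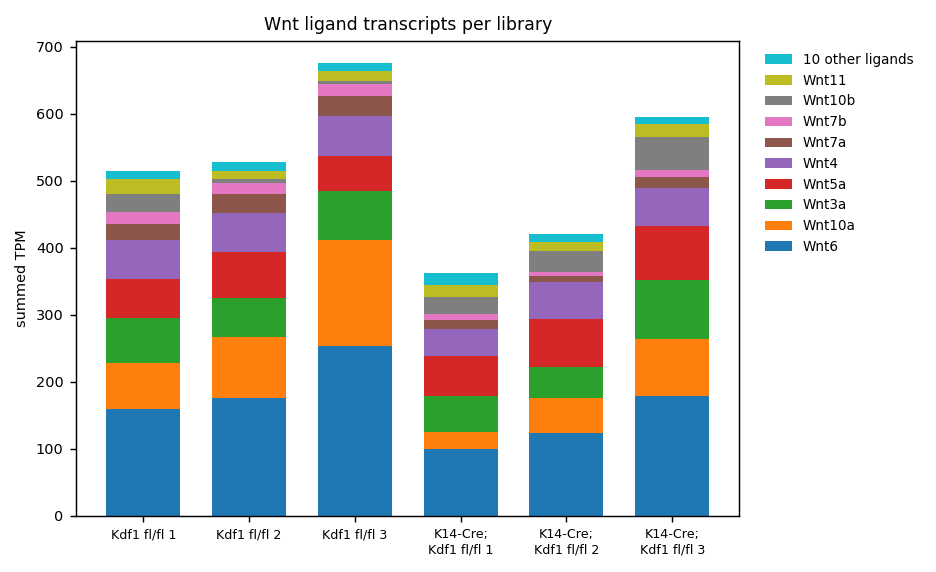
Summed TPM of the Wnt ligands (y axis, from 0) in each of the 6 libraries (x axis), with each bar divided among the 9 most abundant ligands and the 10 other ligands together. *Wnt6* forms the largest block in every library, and the totals run from 514 to 675 TPM in control and from 363 to 594 TPM in cKO.

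The R-spondins were higher in cKO for all 3 tested, with a median log2 fold change of 1.66, but their levels varied widely among replicates. *Rspo1* had 1.66, 2.74 and 0.64 TPM in control and 29.2, 12.4 and 3.95 TPM in cKO. Every cKO library was above every control library, and the level was 8.61-fold higher, with a log2 difference of 3.11 (SE 0.75, adjusted p = 0.0814). With the block its adjusted p was 0.0124. Without cKO replicate 1, the highest library, the log2 fold change was 2.31. Per 1000 TPM of the 13 papilla markers, *Rspo1* had 2.44, 1.87 and 1.08 TPM in control and 9.45, 5.12 and 2.96 TPM in cKO, with every cKO library above the controls. With all 15 papilla markers in the sum the ratio was 1.04, 0.357 and 0.147 in control and 5.01, 2.62 and 0.923 in cKO, and cKO replicate 3 was then below control replicate 1.

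*Rspo2* and *Rspo4* were highest in replicate 2 of both groups. *Rspo2* had 1.31, 13.2 and 0.22 TPM in control and 7.8, 34.3 and 4.41 TPM in cKO, with a log2 difference of 1.66 (SE 1.28, adjusted p = 0.4598). *Rspo4* had 3.2, 64.05 and 5.35 TPM in control and 3.91, 176 and 2.21 TPM in cKO, with a log2 difference of 1.36 (SE 1.69, adjusted p = 0.657). The replicate 2 level was several times any other level of its group in both genes. With the block, *Rspo2* passed the criterion (log2 fold change 2.32, adjusted p = 0.0385). Its log2 fold change ran from 0.29 without cKO replicate 2 to 4.27 without control replicate 2, and that of *Rspo4* from -2.99 to 3.72 in the same fits, so a single library sets both values. *Rspo3* did not pass the filter, with counts of 7, 3 and 5 in control and 27, 8 and 5 in cKO.

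Frizzled receptors, which bind Wnt ligands through a cysteine-rich domain, showed no common direction, with 6 of 10 above 0 and a median log2 fold change of 0.10. *Fzd1* and *Fzd5* were the 2 with an unadjusted p of at most 0.05, and their directions were opposite. Of all genes tested, 13.0% were higher and 11.6% were lower at that limit. *Fzd1* had 13.3, 19.5 and 7.02 TPM in control and 44.1, 52.5 and 19.9 TPM in cKO, which was 2.83-fold higher in cKO without overlap, with a log2 difference of 1.50 (SE 0.42, adjusted p = 0.09999). With the block its adjusted p was 0.00363. *Fzd5* had 31.9, 23.6 and 20.4 TPM in control and 18.03, 17.6 and 12.1 TPM in cKO, 1.67-fold lower without overlap, with a log2 difference of -0.74 (SE 0.20, adjusted p = 0.09195). Its adjusted p was 0.0319 in edgeR with the block and 0.0178 in DESeq2, short of the fold change limit in both.

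Both were also set against the marker list whose median lay on the same side of 0. Set against 1000 TPM of the 13 papilla markers, *Fzd1* had 19.5, 13.3 and 11.8 TPM in control and 14.3, 21.6 and 14.9 TPM in cKO. Per 1000 TPM of the epithelium markers, *Fzd5* had 2.33, 2.19 and 1.37 TPM in control and 2.45, 2.73 and 1.14 TPM in cKO. Both ratios overlapped between the groups. Since each list was picked for moving the same way as the gene, the ratio narrows the difference by construction. The overlap therefore does not show which cells the difference came from.

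Among the other Frizzleds, *Fzd2*, *Fzd6* and *Fzd7* were the most abundant. *Fzd2* had 93.4, 82.2 and 60.2 TPM in control and 92.2, 93.6 and 73.1 TPM in cKO, with a log2 difference of 0.08 (SE 0.16, adjusted p = 0.788). *Fzd6*, a receptor of planar cell polarity in skin, had 57.8, 48.3 and 55.6 TPM in control and 43.4, 44.7 and 53.5 TPM in cKO, with a log2 difference of -0.26 (SE 0.17, adjusted p = 0.371). *Fzd7* had 48.8, 49.7 and 29.2 TPM in control and 56.6, 68.5 and 44.5 TPM in cKO, with a log2 difference of 0.36 (SE 0.21, adjusted p = 0.336). The groups overlapped in all 3. The levels of *Fzd3*, which acts with *Fzd6* in planar cell polarity, were 38.95, 28.4 and 29.8 TPM in control and 26.3, 26.4 and 33.5 TPM in cKO, with a log2 difference of -0.22 (SE 0.19, adjusted p = 0.507). The levels of *Fzd8* overlapped too, with 11.7, 10.2 and 10.4 TPM in control and 12.2, 8.53 and 10.6 TPM in cKO, with a log2 difference of -0.11 (SE 0.17, adjusted p = 0.7396). The less abundant *Fzd4* (mean 1.92 TPM in control and 3.79 TPM in cKO), *Fzd9* (0.737 and 0.843 TPM) and *Fzd10* (7.44 and 9.71 TPM) had higher means in cKO, with overlapping groups.

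The Lrp co-receptors, which join Frizzled in the canonical receptor complex, had log2 fold changes close to 0. *Lrp5* had 40.4, 39.99 and 27.3 TPM in control and 50.1, 33.5 and 28.04 TPM in cKO, with a log2 difference of -0.02 (SE 0.20, adjusted p = 0.972). *Lrp6* had 18.1, 18.8 and 15.5 TPM in control and 23.1, 18.51 and 20.8 TPM in cKO, with a log2 difference of 0.20 (SE 0.11, adjusted p = 0.309). The groups overlapped in both, and the 95% confidence interval of the log2 fold change was -0.48 to 0.45 for *Lrp5* and -0.06 to 0.45 for *Lrp6*.

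The Lgr receptors, through which R-spondins act, were higher in cKO for all 3 genes and without overlap in each. Of all genes tested, 15.4% were higher without overlap. *Lgr4*, the most abundant, had 21.8, 21.9 and 20.4 TPM in control and 47.7, 36.8 and 28.6 TPM in cKO, with a log2 difference of 0.75 (SE 0.15, adjusted p = 0.0674). Its adjusted p was 0.0290 in edgeR with the block and 0.00131 in DESeq2, short of the fold change limit in both. *Lgr6*, a stem cell marker of skin, had 9.87, 13.4 and 5.6 TPM in control and 20.5, 27.3 and 16.6 TPM in cKO, which was 2.18-fold higher, with a log2 difference of 1.12 (SE 0.29, adjusted p = 0.0875), and its adjusted p was 0.0102 with the block. *Lgr5*, a stem cell marker of several epithelia, was low throughout, with 0.51, 0.52 and 0.32 TPM in control and 1.69, 0.82 and 0.82 TPM in cKO, with a log2 difference of 1.23 (SE 0.39, adjusted p = 0.125). Their summed level was 32.2, 35.8 and 26.3 TPM in control and 69.9, 65 and 45.97 TPM in cKO.

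The Sfrp antagonists held the 2 largest differences of all members, in *Sfrp4* and *Sfrp2*. *Sfrp1*, *Sfrp2* and *Sfrp4* were 6.34-fold, 16.4-fold and 51.1-fold higher in cKO, while *Sfrp5* had overlapping groups. By mean TPM among the 52 members, *Sfrp2* went from rank 26 in control to rank 1 in cKO and *Sfrp4* from rank 37 to rank 2, and *Wnt6* from rank 1 to rank 3. None of *Sfrp1*, *Sfrp2* and *Sfrp4* passed the criterion in edgeR without the block, all 3 passed it with the block and in DESeq2, and within the cKO group each varied several-fold among the libraries.

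*Sfrp2* had 20.6, 17.2 and 3.73 TPM in control and 566, 103 and 63.1 TPM in cKO. The lowest cKO library was above the highest control library, and cKO replicate 1 was several times the other two. The log2 difference was 4.04 (SE 0.96, adjusted p = 0.0803), with an adjusted p of 0.0102 with the block and 0.00279 in DESeq2. *Sfrp4* had 3.33, 4.14 and 0.68 TPM in control and 328, 25.7 and 87.7 TPM in cKO, with a log2 difference of 5.68 (SE 1.04, adjusted p = 0.0637) and an adjusted p of 0.0241 with the block. Here too no cKO library reached down to the controls, and replicate 1 was the highest. *Sfrp1* had 8.52, 18.7 and 4.59 TPM in control and 103, 88.3 and 18.4 TPM in cKO, with a log2 difference of 2.67 (SE 0.68, adjusted p = 0.0875) and an adjusted p of 0.01202 with the block. In *Sfrp1* the groups met, since cKO replicate 3 was just under control replicate 2. Without cKO replicate 1 the log2 fold change was 2.61 for *Sfrp2* and 4.45 for *Sfrp4*. *Sfrp5*, known from the epithelium of the incisor cervical loop, had 27.03, 39.02 and 16.02 TPM in control and 32.2, 30.01 and 14.7 TPM in cKO, with a log2 difference of -0.15 (SE 0.34, adjusted p = 0.824). The 95% confidence interval of its log2 fold change was -0.96 to 0.67.

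The sum of the 4 Sfrp genes was 59.4, 79.05 and 25.02 TPM in control and 1029, 247 and 184 TPM in cKO. Divided by the summed Wnt ligand TPM of the same library, this was 0.116, 0.1498 and 0.0371 in control and 2.84, 0.587 and 0.3095 in cKO, so that in cKO replicate 1 the Sfrp transcripts exceeded the ligand transcripts. Papilla, endothelial and immune markers were also highest in cKO replicate 1 when the collagen genes were left aside. Relative to 1000 TPM of the 13 papilla markers, *Sfrp1*, *Sfrp2* and *Sfrp4* together had 47.6, 27.3 and 15.2 TPM in control and 323, 89.2 and 127 TPM in cKO, with every cKO library above every control library. That marker sum was mostly *Vim* in control, and ratios to single papilla markers were not computed. The 5 bone markers, 4 above 0 and 1 below, summed to 272, 913 and 872 TPM in control and 2281, 491 and 1180 TPM in cKO. Of these, *Spp1* had 42.4, 74.6 and 36.25 TPM in control and 1682, 176 and 527 TPM in cKO. Its order of replicates was that of *Sfrp4* in both groups. The part of endothelial, immune and bone cells in the Sfrp levels was not tested.

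**Figure D3:**
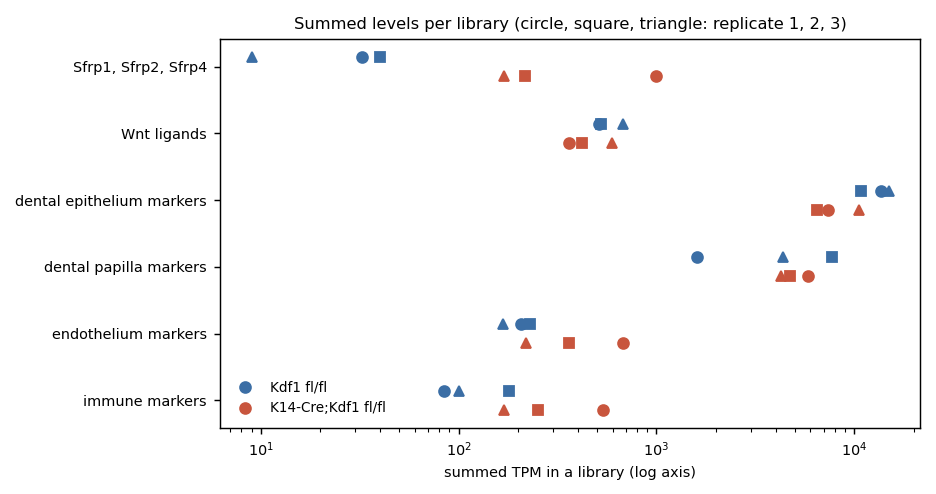
Summed TPM per library (x axis, log scale) for *Sfrp1*, *Sfrp2* and *Sfrp4*, for all Wnt ligands and for 4 lists of cell type markers, with control libraries in blue and cKO libraries in red and a symbol for each replicate number. The Sfrp sums run from 9.0 to 40.03 TPM in control and from 169 to 997 TPM in cKO without overlap. The dental epithelium sums are lower in cKO. The dental papilla sums hold all 15 listed markers, are mostly *Col1a1* and *Col1a2* in control, and overlap. Without these collagen genes, which is not plotted, the papilla sums were 594 to 1468 TPM in control and 1336 to 3090 TPM in cKO.

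The Dkk antagonists included 1 of the 2 genes past the criterion. *Dkk3*, a divergent relative that is not known to block Lrp as *Dkk1* does, had 27.9, 39.9 and 36.4 TPM in control and 104, 82.2 and 71.8 TPM in cKO. It rose 2.36-fold, from 34.7 ± 6.18 to 86.1 ± 16.6 TPM (SD, n = 3 per group), without overlap, with a log2 difference of 1.24 (SE 0.17, adjusted p = 0.0498). Per 1000 TPM of the 13 papilla markers it had 40.96, 27.2 and 61.3 TPM in control and 33.8, 33.8 and 53.8 TPM in cKO, and on that ratio the groups overlapped.

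*Dkk1*, the best known Lrp antagonist, had 9.52, 38.1 and 23.2 TPM in control and 12.2, 32.4 and 24.3 TPM in cKO, with a log2 difference of -0.06 (SE 0.53, adjusted p = 0.956), with replicate 1 the lowest in each group. *Dkk2* (mean 4.01 TPM in control and 6.77 TPM in cKO) was higher in cKO with overlapping groups. *Dkk4*, a target of Wnt signalling in placodes and enamel knots, did not pass the filter, with 12, 0 and 0 counts in control and 4, 8 and 53 in cKO. The 53 counts in cKO replicate 3 were the highest of any member left out.

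The Axins and the TCF/LEF factors lie inside the cell, downstream of the receptors. *Axin1*, the constitutive scaffold of the destruction complex, had 67.7, 66.8 and 52.6 TPM in control and 69.7, 71.3 and 49.4 TPM in cKO, with a log2 difference of -0.07 (SE 0.16, adjusted p = 0.825). *Axin2*, its relative and a widely used readout of canonical signalling, had 16.7, 17.2 and 13.9 TPM in control and 19.6, 31.3 and 25.9 TPM in cKO. It was higher in every cKO library than in any control, 1.56-fold on average, with a log2 difference of 0.64 (SE 0.20, adjusted p = 0.121). In that fit it met neither limit of the criterion. The adjusted p was 0.0837 in edgeR with the block and 0.0377 in DESeq2, with log2 fold changes of 0.61 and 0.66, short of the limit of 1.

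*Lef1*, which tooth germs need to develop beyond the bud stage, had 9.5, 11.99 and 9.13 TPM in control and 22.4, 28.8 and 37 TPM in cKO. It rose 2.47-fold, from 10.2 ± 1.56 to 29.4 ± 7.31 TPM (SD, n = 3 per group), without overlap, with a log2 difference of 1.30 (SE 0.18, adjusted p = 0.0498). The 95% confidence interval of its log2 fold change was 0.89 to 1.72. Its level was highest in cKO replicate 3, unlike the Sfrp genes, which were highest in cKO replicate 1. Scaled to 1000 TPM of the same 13 markers, *Lef1* had 13.9, 8.17 and 15.4 TPM in control and 7.26, 11.8 and 27.7 TPM in cKO, which overlapped.

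All 4 TCF/LEF factors had a log2 fold change above 0, with a median of 0.58. *Tcf7* (TCF1) had 42.8, 67.3 and 24.9 TPM in control and 66.04, 126 and 69.8 TPM in cKO, with a log2 difference of 0.89 (SE 0.39, adjusted p = 0.214). Its adjusted p was 0.0273 in edgeR with the block, short of the fold change limit, and 0.103 in DESeq2. Replicate 2 was the highest in both groups and the groups met at 1 library each. *Tcf7l1* (TCF3), which mostly acts as a repressor, was the most abundant factor by mean with 79.5, 77.01 and 61.7 TPM in control and 104, 85.3 and 83.9 TPM in cKO, with a log2 difference of 0.26 (SE 0.11, adjusted p = 0.206), and its groups did not overlap. *Tcf7l2* (TCF4) had 20.8, 24.1 and 20.4 TPM in control and 24.2, 20.6 and 25.99 TPM in cKO, with a log2 difference of 0.05 (SE 0.13, adjusted p = 0.8303), with overlapping groups.

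**Figure D4:**
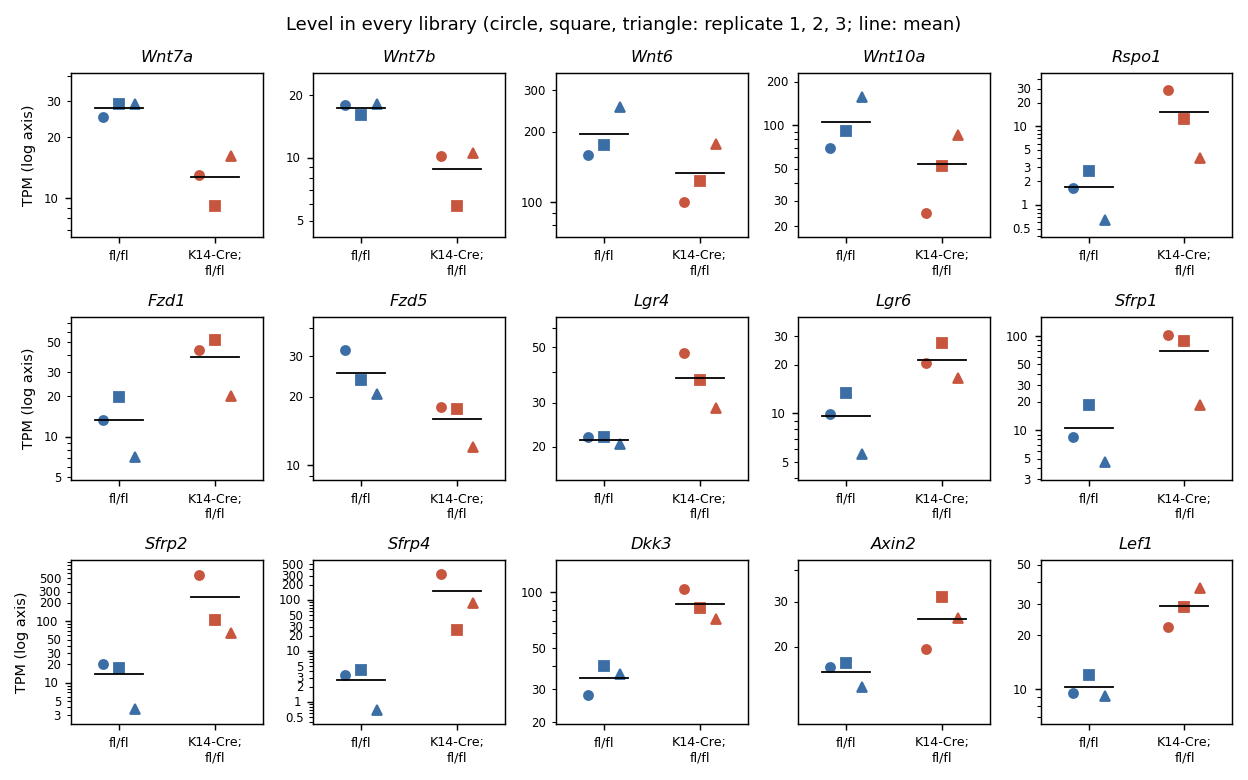
TPM (y axis, log scale, one scale per panel) of 15 members in each control library (blue) and cKO library (red), with a symbol for each replicate number and a line at the group mean. *Wnt7a* and *Wnt7b* lie lower in every cKO library, *Wnt6* and *Wnt10a* keep the order of their replicates in both groups, and *Sfrp2*, *Sfrp4*, *Dkk3* and *Lef1* lie higher in every cKO library.

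The other genes of the pathway were read from a list of 81, of which 79 were in the table and 75 were tested. *Celsr1* fell past the criterion and none rose, and the median log2 fold change of the list was 0.04. At an unadjusted p of at most 0.05, 16 of the 75 were higher and 8 were lower in cKO, which is 21.3% and 10.7%, against 13.0% and 11.6% of all genes tested. With the replicate block 8 passed the criterion as higher and 1 as lower, and DESeq2 gave the same counts. The shares of all genes tested were 4.16% and 1.92% with the block and 5.05% and 1.88% in DESeq2.

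Secreted modulators and proteins of Wnt secretion had a log2 fold change above 0 in 8 of 9 tested. Of these, 6 had an unadjusted p of at most 0.05, where 13.0% of all genes tested were higher at that limit. *Igfbp4*, an IGF-binding protein that also inhibits Frizzled and *Lrp6*, had 158, 222 and 116 TPM in control and 930.2, 689 and 359.8 TPM in cKO, with a log2 difference of 1.92 (SE 0.33, adjusted p = 0.05802). *Frzb*, a further Frizzled-related antagonist (Sfrp3), had 3.63, 17.3 and 1.98 TPM in control and 67.3, 69.3 and 14.2 TPM in cKO, with a log2 difference of 2.69 (SE 0.86, adjusted p = 0.128). Both followed the pattern of *Sfrp1*, with the lowest cKO level in replicate 3. *Draxin*, which binds *Lrp6*, was at or under 1.5 TPM in every library, with a log2 difference of 2.34 (SE 0.76, adjusted p = 0.131). Among other receptors, *Reck*, a partner in recognition of Wnt7 ligands, had 10.4, 28.4 and 12.1 TPM in control and 32.8, 49.2 and 23.2 TPM in cKO, with a log2 difference of 1.01 (SE 0.41, adjusted p = 0.183).

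The planar cell polarity genes were lower in cKO in 10 of 14. *Celsr1*, a core cadherin of this pathway in epithelia, had 144, 145 and 192 TPM in control and 74.3, 72.5 and 81.99 TPM in cKO. It fell 2.33-fold without overlap, with a log2 difference of -1.22 (SE 0.16, adjusted p = 0.0498). The Dishevelled-binding proteins *Dact3*, *Dact1* and *Daam2* had higher levels in cKO that did not pass the criterion in edgeR without the block. All 3 passed it in DESeq2, and *Dact3* also with the block (adjusted p = 0.0236). The log2 fold change was 1.08 (SE 0.26, adjusted p = 0.0808) for *Dact3*, 1.36 (SE 0.49, adjusted p = 0.155) for *Dact1* and 1.62 (SE 0.57, adjusted p = 0.149) for *Daam2*. The dental epithelium markers had a median of -0.60 and the papilla markers of 1.49 in the same fit, and their part in these values was not tested.

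Among 15 feedback and target genes 10 were above 0. At an unadjusted p of at most 0.05, 4 of the 15 (26.7%) were higher, where 13.0% of all genes tested were higher and 11.6% were lower. *Ascl2*, *Sp5* and *Trabd2b* were those of the 4 that were at least 2-fold higher, a cut for which no share of all genes was computed. *Ascl2*, a Wnt target of intestinal stem cells, had 0.16, 0.41 and 0.30 TPM in control and 1.44, 1.49 and 1.97 TPM in cKO, with a log2 difference of 2.41 (SE 0.47, adjusted p = 0.0637). *Sp5*, a direct beta-catenin target, had 0.41, 0.66 and 0.22 TPM in control and 1.92, 1.34 and 1.93 TPM in cKO, with a log2 difference of 1.95 (SE 0.44, adjusted p = 0.0745). *Trabd2b*, a protease that inactivates Wnt ligands, had 3.53, 3.55 and 1.56 TPM in control and 20.8, 15.1 and 4.07 TPM in cKO, with a log2 difference of 2.09 (SE 0.56, adjusted p = 0.09196). Every cKO library was above every control in these 3 genes and in 4 of the 15 (26.7%), where 15.4% of all genes tested were higher without overlap. *Ccnd1* (cyclin D1), added here after its values were seen, was the only gene of the 15 lower at that limit, with 309, 273 and 206 TPM in control and 177, 195 and 128 TPM in cKO, with a log2 difference of -0.72 (SE 0.19, adjusted p = 0.0896). Its groups did not overlap, and the adjusted p was 0.0348 with the block and 0.00934 in DESeq2, short of the fold change that the criterion asks for. Of the 16 genes of Dishevelled and the destruction complex none had an unadjusted p of at most 0.05 and none passed the criterion in DESeq2, with log2 fold changes between -0.40 and 0.29. Of the 13 nuclear co-factors, 2 (15.4%) were higher and 3 (23.1%) were lower at that limit, each by less than 1 on the log2 scale. The shares of all genes tested were 13.0% and 11.6%.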

How the data were processed

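RNA-seq was done on 6 IEE samples, 3 of each genotype. The deposited estimated counts are the authors' reads per gene, unnormalised, with 10.9% to 11.5% of values not whole, and the deposited TPM values are the authors' counts scaled by length and depth. The authors' FPKM and group averages were not used. The submitters' processing notes name BWA 0.7.12, Picard 2.6.0 and StringTie, and the genome build, annotation and counting program are not given in the sources used here.

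Counts were rounded. In R 4.3.3, edgeR 4.0.16 (filterByExpr, TMM, robust quasi-likelihood F-test, two-sided) compared the groups with Benjamini-Hochberg adjustment over 14131 genes, at the study's stated limits. The procedure was tested on simulated counts. Members and lists were chosen with earlier results of these data known. Members with an unadjusted p of at most 0.05 or a mean of at least 10 TPM in a group are given by library, and other pathway genes with an unadjusted p of at most 0.05 and a log2 fold change of 1 or more in either direction are named, at most 5 for each part of the list. Libraries of a group differed by more than sampling noise, with correlations of log2 CPM from 0.950 to 0.980, so none was present in duplicate.

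Both groups are numbered 1 to 3 in the labels. Deviations from the group means of same-numbered libraries correlated at 0.135, 0.324 and 0.499, and the sum of 0.958 exceeded that of any other pairing (0.545 at most). The labels and methods do not describe the numbers as pairs, and this check on the same expression data cannot establish it. With 3 libraries a group few pairings exist, so the same numbers can rank first by accident. The fit without a block was therefore kept as the main one, and every test was repeated with the number as a block.

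Alternatives were DESeq2 1.42.0, 3 other scalings, 2 other filters, limma 3.58.1 on counts and on log2(TPM + 1) or log2(TPM + 0.1), other thresholds, and each library left out. A count of 0 allows up to 3 counts (0.182 to 0.198 CPM), which covers counting error only.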

Additional observations from a re-analysis of the deposited data

How the results depend on the processing

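Of 45 tested members, 33 kept the direction of their log2 fold change under all alternatives run, and 12 with values near 0 or set by 1 library changed it in at least 1. The 2 members past the criterion became 10 with DESeq2, 12 with the replicate block and 10 at an adjusted p of at most 0.1. They became 0 with DESeq2's size factors in edgeR, library size alone, at least 10 counts in every library, limma-voom and limma on log2(TPM + 1). In those 5 fits only 6 to 16 genes of the whole table passed. There 12 or 13 members were higher at an unadjusted p of at most 0.05. Leaving out 1 library gave 0 to 5, with the 5 from leaving out cKO replicate 3. For the pathway list, the 1 gene became 9 with DESeq2, 9 with the block, 6 at an adjusted p of at most 0.1, 0 in those same 5 fits, and 0 to 5 without 1 library. At an unadjusted p of at most 0.05, the block raised the 11 higher members to 18 and the 3 lower ones to 5, and leaving out 1 library gave 10 to 14 and 3 to 8, the 8 without cKO replicate 3. The shares of all genes tested with the block were 15.3% and 13.9%. Of the members, the block added *Dkk2*, *Fzd4*, *Fzd7*, *Rspo2*, *Tcf7*, *Tcf7l1* and *Wnt10b* as higher and *Wnt6* and *Wnt10a* as lower at that limit, and lost none. The whole table moved with the fit, from 61 genes past the criterion to 860 with the block and 980 with DESeq2. Without 1 library, 1 to 465 genes passed. Shares of all genes were not computed at an adjusted p of at most 0.1, nor at the unadjusted limit outside the main fit and the block. Counts given for those settings therefore cannot be read as particular to the members. Scaling moved the median of all genes by less than 0.1 on the log2 scale.

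Reversed log2 fold changes on log2(TPM + 1) and log2(TPM + 0.1) were 0.016 and 0.016 for *Axin1*, 0.054 and 0.062 for *Dkk1*, 0.047 and 0.051 for *Wnt11*, and 0.030 and 0.031 for *Lrp5*. *Lrp5* was also reversed with DESeq2 and its size factors (0.0043 in both), upper quartile scaling (0.013), library size alone (0.036) and at least 10 counts (0.00037), and *Fzd9* was -0.034 with limma-voom. Leaving out 1 library gave ranges of -0.16 to 0.085 for *Axin1*, -0.44 to 0.38 for *Dkk1*, -0.039 to 0.23 for *Fzd2*, -0.19 to 0.042 for *Fzd8*, -0.50 to 0.42 for *Fzd9*, -0.21 to 0.14 for *Lrp5*, -2.99 to 3.72 for *Rspo4*, -0.39 to 0.14 for *Sfrp5*, -0.037 to 0.16 for *Tcf7l2*, -0.31 to 0.26 for *Wnt11*, -0.49 to 0.083 for *Wnt3a* and -0.25 to 0.73 for *Wnt9a*. The cause of these changes was not tested. *Kdf1* gave no value with at least 10 counts in every library, because its cKO counts are below that limit. With 3 libraries a group, 31 of 45 members had an unadjusted p above 0.05 without the block and 22 with it, and members with few counts could not be compared at this depth.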
